A study of Oryza sativa with 12 samples.

Results

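The genes described here make, break down and respond to cytokinins in rice leaves. They were chosen by name: 36 genes of the species gene table carry a symbol or synonym of the form LOG, LOGL, CKX, IPT or RR with a number. Of these, 26 of the 17905 genes with a probe set on the array could be followed, namely 8 LOG, 5 CKX and 13 RR genes. No gene matched the IPT pattern, and LOGL4, LOGL8, CKX2, CKX9, RR7, RR10, RR11, RR13, RR25 and RR27 matched by name but had no probe set in the platform table. The study grew 2 upland rice cultivars in flooded field plots: Azucena, which belongs to the tropical japonica group, and Bala, which belongs to the indica group. The 4 groups were Azucena drought, Azucena control, Bala drought and Bala control, with 3 arrays each and 12 in all. Drought plots had water withheld from day 59 after sowing, control plots stayed flooded, and all leaves were cut on day 83, after 24 days without water in the drought plots. Each sample was a bag of the central parts of fully expanded leaves, pooled within 1 of 3 field blocks. A drought bag held leaves of 2 plots and a control bag leaves of 1, and no label ties an array's replicate number to a block. No sequence of a member was analysed here.

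Cytokinins are adenine-derived hormones that keep shoot meristems dividing and delay the yellowing of leaves. Isopentenyltransferases (IPT) make a nucleotide precursor, and LOG enzymes, first found in rice through the lonely guy mutant, release the active free base from it. Cytokinin oxidases (CKX) destroy the hormone irreversibly. Membrane histidine kinases perceive it and pass a phosphate through phosphotransfer proteins to response regulators (RR). Type-B regulators are transcription factors of the response, whereas type-A regulators lack a DNA-binding domain, are induced quickly by cytokinin and dampen its signal.

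Signals are linear MAS5 values, in arbitrary units, and can be compared between arrays for a given gene but not between genes. Between cultivars this holds only where the probes match both equally well, which was not tested. Group values are means ± SD with n = 3. Differences are on the scale log2(signal + 16), where dim genes change less than their signal does. Adjusted p-values are from limma with Benjamini-Hochberg adjustment over all probe sets tested, called below 0.05. Each array's background was set at its brightest negative control probe set, of 33, and lay between 13.4 and 28.3. Array medians lay between 9.6 and 12.4. Over all 15608 genes tested the median log2 change was 0.03 in Azucena and 0.18 in Bala as deposited, 0.0050 and 0.036 after quantile normalization, 0.020 and 0.11 after median centring, and 0.048 and 0.22 after spike-in centring. Whole-leaf RNA cannot tell fewer cells of a type from less RNA per cell.

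Of the 26 genes, 22 passed the filter on low values. The others, CKX1, RR5, RR33 and RR41, were not above background on any of the 12 arrays, and their highest signals were 3.3, 12, 11.4 and 6.5. CKX3 was above background on 1 array. LOGL6 and LOGL10 were above background on the 6 control arrays and on no drought array.

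In Azucena 13 of the 22 genes tested fell under drought and 4 rose, beside 17.4% of all genes tested called lower and 18.2% called higher. In Bala 12 fell and 2 rose, beside 14.1% lower and 27.4% higher. The median log2 change of the 22 was -0.51 in Azucena, against 0.03 over all genes, and -0.68 in Bala, against 0.18. With genes that fell or rose to or from background set at their bound, the medians were -0.51 and -0.55. In Azucena the drought arrays all lay above the control arrays for 4 of the 22 genes and all below for 14, beside 27.3% and 24.0% of all genes (51.4% in either direction). In Bala they lay above for 3 and below for 13, beside 34.3% and 17.4% (51.7% in either direction). The genes called lower in both cultivars were LOG, LOGL3, LOGL5, LOGL6, LOGL9, LOGL10, RR2, RR4, RR6, RR9 and RR24. These 11 of 22 stand beside 8.55% of all genes. CKX11 was the 1 gene called higher in both, beside 11.6%, and CKX3, LOGL1, RR1 and RR21 were called in neither. LOGL6 and LOGL10 would not have passed the filter without their control arrays, so the filter itself favoured a fall in them. These counts describe the genes that passed and not all 26. After quantile normalization the Bala counts were 16 lower and 1 higher. The same scaling moved the balance of all genes in Bala to 3548 higher and 3324 lower calls, beside 4270 and 2195 as deposited, 3778 and 2560 after median centring, and 5097 and 2085 after spike-in centring.

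**Figure D1:**
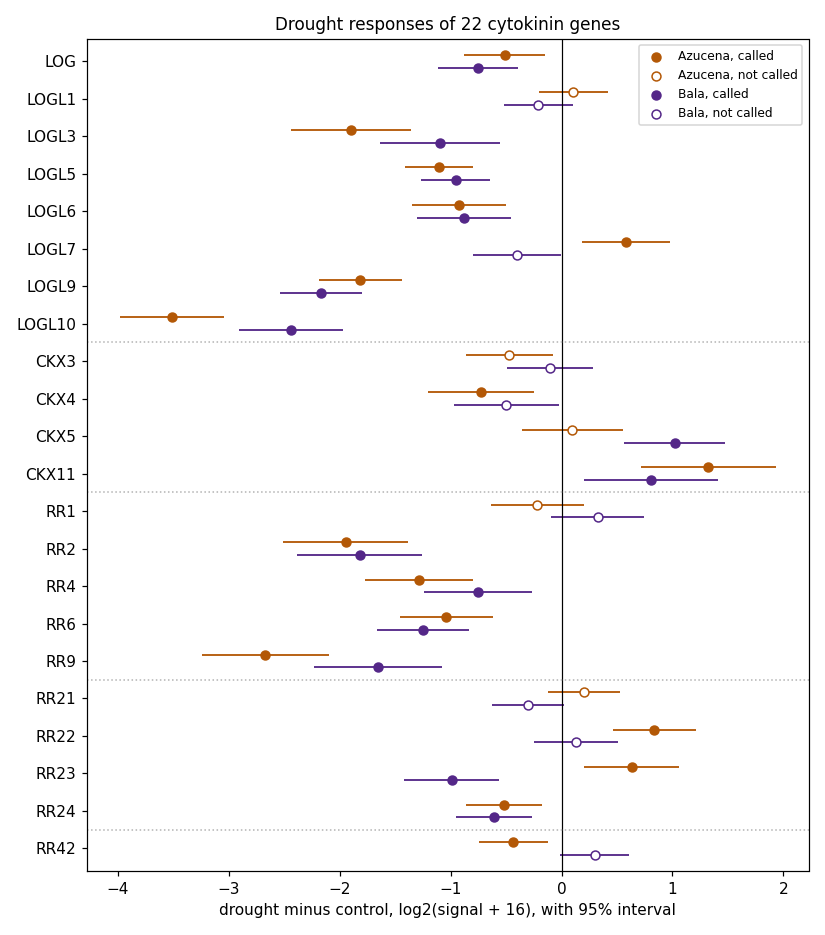
Log2 difference, drought minus control, on the log2(signal + 16) scale for the 22 genes tested, with 95% intervals from limma; filled points were called and open points were not, and dotted lines part the LOG, CKX, type-A, type-B and remaining RR genes. LOGL10 lies farthest to the left in both cultivars, at -3.51 in Azucena and -2.44 in Bala, while CKX11 lies to the right in both.

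Most genes of the activating step fell under drought. Of the 8 LOG genes, all of them tested, 6 fell in Azucena and 1 rose, and 6 fell in Bala and none rose. Over all genes 17.4% fell and 18.2% rose in Azucena, and 14.1% fell and 27.4% rose in Bala. The count includes LOGL6 and LOGL10, which would not have passed the filter without their control arrays. The median log2 change of the 8 was -1.01 in Azucena and -0.92 in Bala, or -0.85 and -0.86 with LOGL6 and LOGL10 at their bounds. LOG, LOGL3, LOGL5, LOGL6, LOGL9 and LOGL10 fell in both cultivars.

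LOGL10 (LOC4348914), a LOG-family phosphoribohydrolase gene, had signals of 4, 11 and 13 in Azucena drought, against 222.8, 323.8 and 270.5 in Azucena control. In Bala it had 5.9, 9.8 and 8.9 under drought, against 114.8, 162.2 and 80.1 in control. All drought arrays lay below background and all control arrays above it, without overlap. The fall was at least 12.4-fold in Azucena (log2 difference -3.51, SE 0.22, adjusted p = 5.5e-09) and at least 5.25-fold in Bala (-2.44, SE 0.22, adjusted p = 2.9e-07). The control arrays themselves differed between cultivars, with Bala the dimmer.

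LOGL9 (LOC4347769) stayed above background throughout. Its signals were 144.7, 203.3 and 166 in Azucena drought, against 715.2, 601.2 and 601.3 in Azucena control. In Bala drought they were 83.8, 64.6 and 62.1, against 313.5, 350.7 and 453.9 in Bala control. The groups did not overlap in either cultivar, and the fall was -1.81 in Azucena (SE 0.18, adjusted p = 7.3e-07) and -2.17 in Bala (SE 0.18, adjusted p = 7.2e-08). The 2 responses differed by -0.35 (95% interval -0.88 to 0.17), which was not called.

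LOGL3 (LOC4331344) separated the cultivars in both conditions. It had 66.6, 62.1 and 74.6 in Azucena drought, against 414, 239.6 and 259.7 in Azucena control. It had 250.7, 254.1 and 436.6 in Bala drought, against 457.1, 714 and 908.5 in Bala control. Drought arrays lay below the control arrays in both cultivars. The fall was -1.90 in Azucena (SE 0.26, adjusted p = 2.5e-05) and -1.10 in Bala (SE 0.26, adjusted p = 0.0031), and the difference between them, 0.80, was not called (adjusted p = 0.18). The Bala drought arrays overlapped the Azucena control arrays.

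LOGL5 (LOC4334848) fell by a similar factor in both cultivars. Its signals were 268.4, 262.2 and 312.2 in Azucena drought, against 705.5, 559.8 and 605.6 in Azucena control. They were 307.4, 241.5 and 250.1 in Bala drought, against 511.5, 562.5 and 513.8 in Bala control. The log2 differences were -1.10 (adjusted p = 2.3e-05) and -0.96 (adjusted p = 8.5e-05), and the interval of the difference between them ran from -0.29 to 0.59.

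LOGL6 (LOC4336417) was dim everywhere. Its signals were 4.9, 10.7 and 14.3 in Azucena drought, all below background, against 31, 33 and 34.2 in Azucena control. Bala drought gave 7.4, 11.6 and 1.4, also below background, against 21.5, 26.5 and 27.8 in Bala control. The falls were at least 1.51-fold (adjusted p = 0.0021) and at least 1.16-fold (adjusted p = 0.0026).

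LOG (LOC4324445), the founding member of the family, had 507.1, 519.6 and 464.4 in Azucena drought, against 876.3, 733.3 and 569.9 in Azucena control. It had 333.7, 434.3 and 475.8 in Bala drought, against 696.3, 800.7 and 622.9 in Bala control. The groups did not overlap. The fall in Bala was -0.75 (SE 0.17, adjusted p = 0.0027). That in Azucena, -0.51 (SE 0.17, adjusted p = 0.034), lost its call on leaving out Azucena control 1 or 2 or any 1 of the Azucena drought arrays (adjusted p between 0.062 and 0.16), after spike-in centring (0.058), with no filter (0.061) and with no trend (0.052). A second LOG probe set stayed below background on all arrays.

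LOGL7 (LOC4339472) was the LOG gene that rose. Its signals were 248.2, 282.5 and 248.3 in Azucena drought, against 157.5, 168.1 and 179.6 in Azucena control. In Bala drought they were 101.2, 151.4 and 152, against 155.9, 241.7 and 155.8 in Bala control. Drought arrays were all higher than control arrays in Azucena and all lower in Bala. The rise in Azucena was 0.58 (SE 0.19, adjusted p = 0.029) and was not called without any 1 of the 6 Azucena arrays (adjusted p between 0.051 and 0.10) or with no filter (0.050 after rounding). The Bala value of -0.40 was not called (adjusted p = 0.12), although it was after quantile normalization (0.018). The responses differed by -0.98, Bala minus Azucena (SE 0.27, adjusted p = 0.024). That call was lost without Azucena drought 2, Bala control 2 or Bala drought 1 (0.052 to 0.068). A dimmer second probe set of LOGL7, above background on 3 arrays, averaged 26.9 ± 0.50 in Azucena drought and 15.6 ± 3.2 in Azucena control, and 8.77 ± 5.3 in Bala drought and 2.23 ± 1.4 in Bala control. All these means but that of Azucena drought were at background. Read by that probe set, LOGL7 was not called in Azucena (0.45, adjusted p = 0.091), and its Bala response and the difference between the responses could not be measured.

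LOGL1 (LOC4327684) was called in neither drought response. Its probe set is of a type that can detect other transcripts. It had 201 ± 18 in Azucena drought and 185 ± 5.9 in Azucena control, and 234 ± 21 in Bala drought and 274 ± 33 in Bala control. The log2 difference was 0.10 in Azucena (95% interval -0.21 to 0.42) and -0.21 in Bala (-0.52 to 0.10). The Bala value was called after quantile normalization (adjusted p = 0.010).

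**Figure D2:**
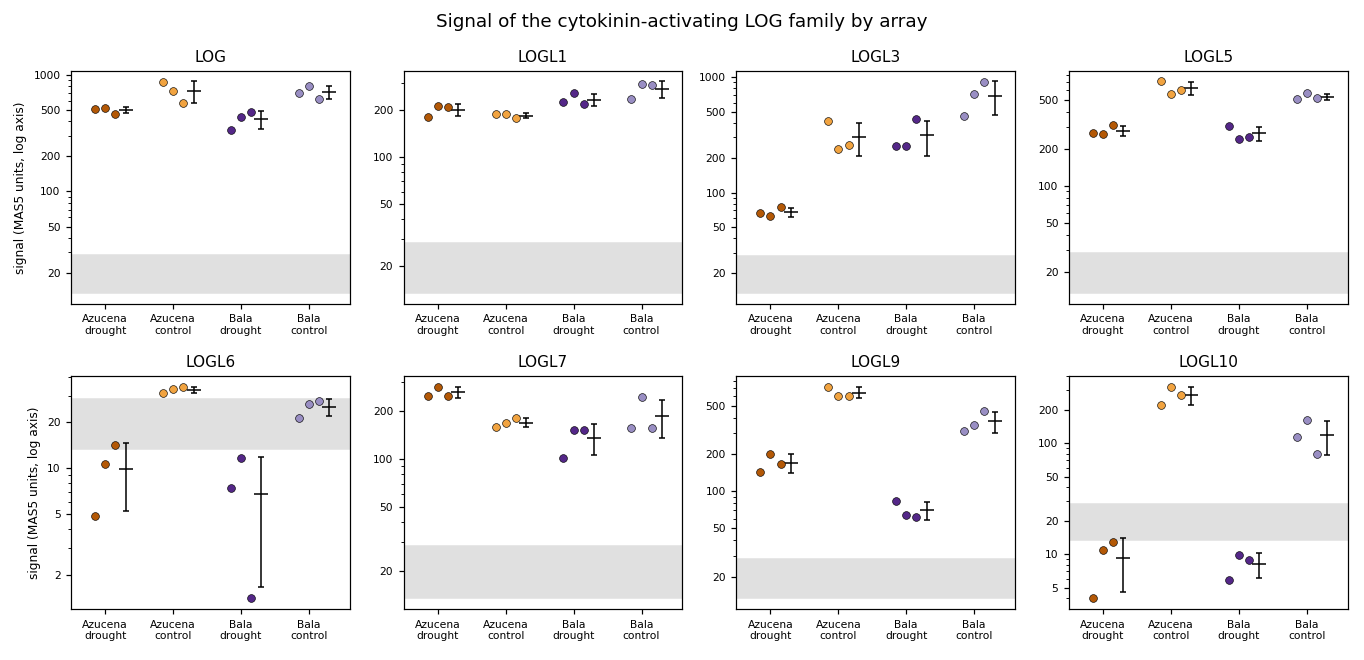
Signal on each array (points, log axis) of the 8 LOG genes in Azucena drought, Azucena control, Bala drought and Bala control, with group mean and SD (n = 3) beside the points and the range of background, 13.4 to 28.3, in grey. LOGL10 and LOGL6 drop to or below the grey band under drought, and LOGL3, LOGL5, LOGL9 and LOG drop but stay above it.

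Of 4 CKX genes tested, 1 rose and 1 fell in Azucena, and 2 rose and none fell in Bala. With 18.2% of all genes higher and 17.4% lower in Azucena, and 27.4% and 14.1% in Bala, so few genes show nothing about the breakdown step as a whole. CKX11 (LOC4345764), whose loss delays leaf senescence in rice, was called higher in both cultivars. It had 578.3, 537.4 and 376.1 in Azucena drought, against 104.6, 234.5 and 255.3 in Azucena control, and rose by 1.33 (SE 0.29, adjusted p = 0.0021). In Bala it had 486.5, 431.6 and 338.8 under drought, against 163.9, 217.9 and 338.4 in control. The Bala groups were parted by 1 narrow gap, and the rise of 0.81 (SE 0.29, adjusted p = 0.041) was not called after quantile normalization (0.10) or median centring (0.071), with an added 1 (0.052), no filter (0.10) or no trend (0.053), or without Bala control 1 or 2 or Bala drought 1 or 2 (0.093 to 0.20). A dimmer CKX11 probe set, at background in Azucena control, was also called higher in Azucena (0.78, adjusted p = 0.045), and gave 0.16 in Bala (adjusted p = 0.72).

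CKX5 (LOC4327887) rose in Bala, where it had 35.5, 38 and 25.5 under drought, against 1.8, 9.4 and 14.7 in control. The control arrays were at background, so the rise was at least 2.15-fold (adjusted p = 0.0014). In Azucena its means of 20.8 ± 4.8 under drought and 18.5 ± 5.3 in control were both at background. The difference between the responses, 0.92, was not called (adjusted p = 0.060), but was without Bala control 3 (0.032) and after spike-in centring (0.027).

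CKX4 (LOC4326515), a gene linked to root growth in rice, had 154.9, 200.4 and 122.9 in Azucena drought, against 237, 367.7 and 223.3 in Azucena control. It had 196, 258.4 and 244.6 in Bala drought, against 406.7, 374.4 and 242.5 in Bala control. Its fall was called in Azucena (-0.73, SE 0.23, adjusted p = 0.023), but not with no filter (0.054) or when Azucena control 2 or Azucena drought 1 or 3 was left out (0.055 to 0.13). In Bala the arrays overlapped and the value of -0.50 was not called (adjusted p = 0.11), but was called without Bala control 3 (0.025) and after quantile normalization (0.041). CKX3 was at background in all groups.

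**Figure D3:**
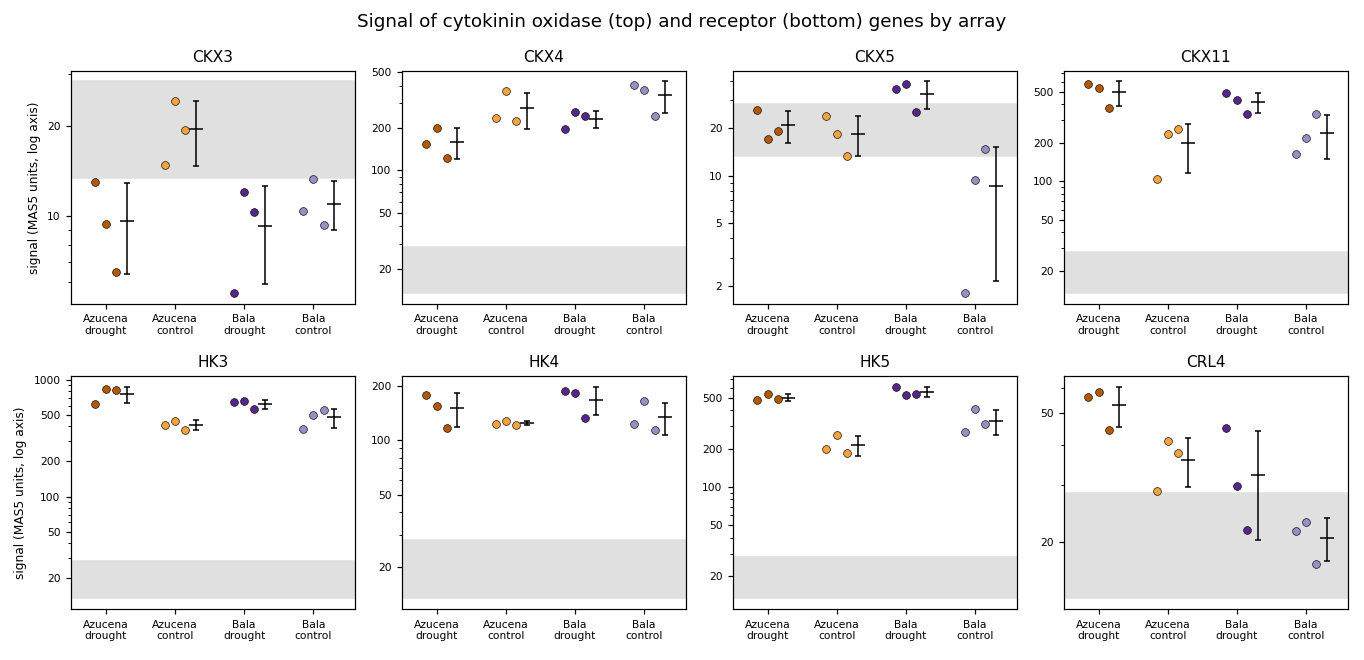
Signal on each array (points, log axis) of 4 CKX genes (top) and 4 cytokinin receptor genes (bottom) in Azucena drought, Azucena control, Bala drought and Bala control, with group mean and SD (n = 3) and the background range, 13.4 to 28.3, in grey. CKX11, HK3 and HK5 are higher under drought in Azucena, and CKX4 is lower.

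Among the response regulators, of 5 type-A genes tested (RR1, RR2, RR4, RR6 and RR9), 4 fell in each cultivar and none rose, with a median log2 change of -1.28 in Azucena and -1.25 in Bala. Of 4 type-B genes (RR21 to RR24), 2 rose and 1 fell in Azucena, and 2 fell and none rose in Bala. The shares over all genes were 17.4% lower and 18.2% higher in Azucena and 14.1% lower and 27.4% higher in Bala, and the types were not tested against each other.

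RR9 (LOC4349747) fell most among the regulators in Azucena. It had 234.2, 215.7 and 143.5 in Azucena drought, against 1850.2, 1374.1 and 903.2 in Azucena control. It had 293.6, 603.6 and 454.2 in Bala drought, against 1537.7, 1655 and 1067.2 in Bala control. The groups did not overlap, and the fall was -2.67 in Azucena (SE 0.27, adjusted p = 1.3e-06) and -1.65 in Bala (SE 0.27, adjusted p = 1.6e-04). The response difference of 1.02 was not called (adjusted p = 0.10), but was without Azucena control 3 (0.040) or Bala drought 1 (0.037). RR10, a close copy of RR9, has no probe set in the table, so the RR9 signal may include it.

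RR2 (LOC4329677), a type-A gene active in crown roots of rice, fell almost equally in both cultivars. Its signals were 35.3, 41 and 30 in Azucena drought, against 213.8, 223.7 and 123.7 in Azucena control. Bala drought gave 19.9, 56.6 and 63.7, against 219.1, 201.4 and 162.6 in Bala control. The log2 differences were -1.95 (SE 0.27, adjusted p = 3.2e-05) and -1.82 (SE 0.27, adjusted p = 5.5e-05), and the interval of their difference ran from -0.67 to 0.93.

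RR6 (LOC4337372) had 337.3, 298.9 and 207.9 in Azucena drought, against 526.6, 723 and 522.3 in Azucena control. It had 361.6, 458.2 and 344.8 in Bala drought, against 1053.7, 1052 and 744.8 in Bala control. It fell by 1.04 on the log2 scale in Azucena (adjusted p = 7.5e-04) and by 1.25 in Bala (adjusted p = 1.1e-04), without overlap.

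RR4 (LOC4325747) had 153.2, 172.9 and 131.2 in Azucena drought, against 516.4, 452.3 and 256.8 in Azucena control. It had 177.8, 317.2 and 271.8 in Bala drought, against 450.6, 447.6 and 393.9 in Bala control. The fall was -1.28 in Azucena (adjusted p = 4.6e-04). In Bala it was -0.75 (adjusted p = 0.019), and was not called without Bala control 1 or 2 or Bala drought 1 (0.052 to 0.12). Its probe set can detect more than 1 transcript.

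RR1 (LOC4335937) did not follow the other type-A genes. It had 88.1 ± 21 in Azucena drought and 104 ± 11 in Azucena control, and 123 ± 30 in Bala drought and 93.3 ± 13 in Bala control. Drought and control arrays overlapped in both cultivars, with log2 differences of -0.22 (95% interval -0.64 to 0.21) and 0.33 (-0.097 to 0.75), neither called.

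RR23 (LOC4331008), a type-B gene, moved in opposite directions. It had 247.8, 411.8 and 386.9 in Azucena drought, against 192.1, 221.7 and 231.2 in Azucena control. It had 244.8, 249.3 and 265.5 in Bala drought, against 420.8, 467.8 and 706.5 in Bala control. All Azucena drought arrays were above, and all Bala drought arrays below, the control arrays of their cultivar. It rose by 0.63 in Azucena (SE 0.20, adjusted p = 0.027) and fell by 0.99 in Bala (SE 0.20, adjusted p = 0.0011). The Azucena rise lost its call with no filter (0.056) and on leaving out Azucena drought 2 or 3, or Azucena control 1 or 2 (0.055 to 0.13). The difference between the responses, -1.62 (SE 0.29, adjusted p = 0.0014), was the largest among the 22 genes and remained called whichever array was left out and under all alternatives tried.

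RR22 (LOC4340320), the gene behind the salt-tolerant hst1 line of rice, had 255, 361.4 and 273.3 in Azucena drought, against 148.7, 181 and 144.3 in Azucena control, and rose by 0.84 (SE 0.18, adjusted p = 0.0019). In Bala it had 333.2, 367.8 and 295.2 under drought, against 237.3, 340.6 and 334.7 in control, which overlapped, and the value of 0.13 was not called. Azucena control was the low group. The response difference of -0.70 missed the threshold (adjusted p = 0.084), but passed it after quantile normalization (0.0034), median centring (0.046) and spike-in centring (0.041) and without Bala control 1 (0.030).

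RR24 (LOC4328516) fell in both cultivars. It had 341.9, 445.2 and 462.5 in Azucena drought, against 610.9, 619.7 and 562.1 in Azucena control, and 402.5, 532.7 and 561.9 in Bala drought, against 654.5, 816.6 and 826.7 in Bala control. The log2 differences were -0.52 (adjusted p = 0.025) and -0.61 (adjusted p = 0.0081), with no overlap. The Azucena call was lost when any of Azucena control 1, Azucena control 2 and Azucena drought 1 was left out (0.066 to 0.13), and the Bala call without Bala drought 1 (0.059). RR21 (LOC4332111) had 716 ± 91 in Azucena drought and 617 ± 28 in Azucena control, and 535 ± 57 in Bala drought and 666 ± 116 in Bala control, and was called in neither, save in Bala after quantile normalization (0.0077) or without Bala control 1 (0.038). Its response difference of -0.50 was not called (adjusted p = 0.16), but was after quantile normalization (0.021).

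RR42 (LOC4335184), whose number places it outside the type-A and type-B series, had 253.6, 309.5 and 267.6 in Azucena drought, against 349.1, 411.1 and 378.7 in Azucena control. It had 345.5, 310.9 and 290.8 in Bala drought, against 230.8, 290.7 and 241.7 in Bala control, so its arrays parted in opposite directions. The Azucena fall of -0.44 was called (adjusted p = 0.037), but not without Azucena control 2 or 3, Azucena drought 1 or 3 or Bala drought 2 (0.051 to 0.13). The Bala value of 0.30 was not called (adjusted p = 0.14). The difference between the responses was 0.73 (SE 0.21, adjusted p = 0.031), and was lost without any 1 of 8 arrays, namely Azucena control 2 or 3, Azucena drought 1 or 3, Bala control 1 or 3 or Bala drought 1 or 2 (0.051 to 0.084).

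**Figure D4:**
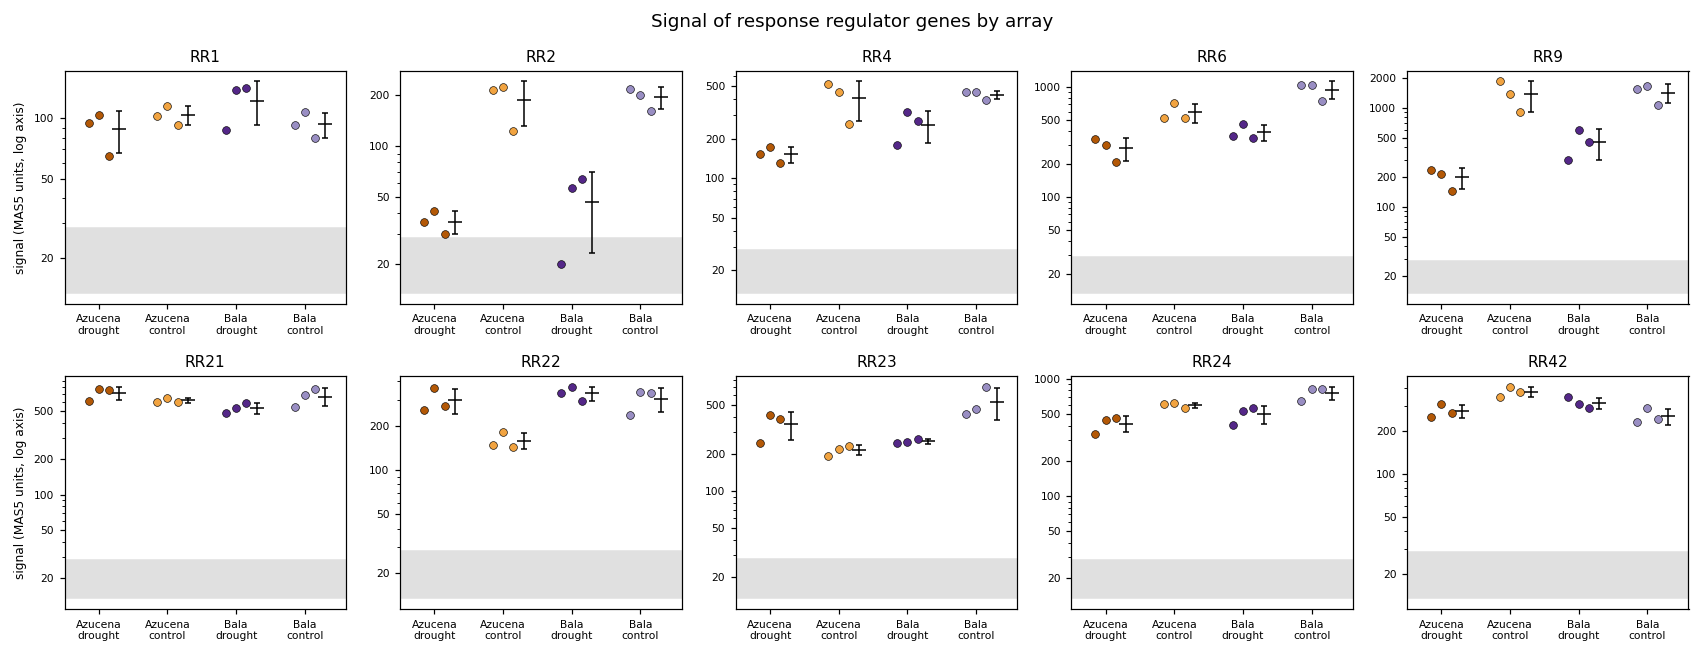
Signal on each array (points, log axis) of 10 response regulator genes in Azucena drought, Azucena control, Bala drought and Bala control, with group mean and SD (n = 3) and the background range, 13.4 to 28.3, in grey; the top row holds type-A genes, the bottom row type-B genes and RR42. RR2, RR4, RR6 and RR9 are lower under drought in both cultivars, and RR23 is higher under drought in Azucena and lower in Bala.

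The cultivars were also compared within each condition, as Bala minus Azucena. These are differences in signal, and whether the probes match the sequences of both cultivars equally was not tested. Under drought 3 of the 22 genes were higher in Bala and 2 lower, beside 12% of all genes higher and 13.7% lower. In flooded plots 5 were higher in Bala and 3 lower, beside 10.7% higher and 22.7% lower. The Bala arrays lay apart above the Azucena arrays for 5 genes and below for 3 under drought, beside 23.0% and 20.9% of all genes (43.9% in either direction), and above for 6 and below for 5 in control, beside 14.0% and 29.5% (43.5%). Over all genes the control split was 1672 higher and 3544 lower as deposited, 3129 and 3107 after quantile normalization, 2193 and 3071 after median centring, and 1304 and 5177 after spike-in centring. The drought split was 1872 and 2145 as deposited and 1398 and 2895 after spike-in centring.

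LOGL3 was higher in Bala in both conditions, by 1.93 under drought (SE 0.26, adjusted p = 1.9e-05) and by 1.13 in control (SE 0.26, adjusted p = 0.0026). LOGL9 was lower in Bala in both, at -1.12 under drought (SE 0.18, adjusted p = 1.3e-04) and -0.76 in control (SE 0.18, adjusted p = 0.0031). Under drought RR9 was higher in Bala (1.10, SE 0.27, adjusted p = 0.0066) and LOGL7 lower (-0.89, SE 0.19, adjusted p = 0.0020). RR21 was not called under drought (-0.41, adjusted p = 0.067), but was after quantile normalization (0.013) and spike-in centring (0.012). It was also called without Bala control 1 (0.032), Bala control 3 (0.050 after rounding) or Azucena drought 1 (0.039). RR4 was called higher in Bala under drought (0.66, adjusted p = 0.049), but this was lost in spike-in centring (0.11), with an added 1 (0.053) or 64 (0.062), with no filter (0.10) or no trend (0.063), and without Azucena control 2, any 1 of the Azucena drought or Bala control arrays or Bala drought 2 or 3 (0.054 to 0.22).

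In control leaves LOGL10 was lower in Bala (-1.12, SE 0.22, adjusted p = 9.1e-04) and RR23 higher (1.21, SE 0.20, adjusted p = 1.8e-04). Under drought neither differed by a called amount, with LOGL10 at background in both cultivars. RR23 (-0.41, adjusted p = 0.17) was called lower in Bala under drought without Azucena drought 1 (-0.63, 0.033). RR22 was higher in Bala control (0.87, adjusted p = 0.0012) and RR42 lower (-0.55, adjusted p = 0.0092). LOGL1 (0.52, adjusted p = 0.013) was higher too, though not called without Bala control 2 (0.050 after rounding). RR6 (0.67, adjusted p = 0.017) lost its call when Azucena control 1 or 3, or Bala control 1 or 2, was left out (0.060 to 0.071), and after spike-in centring (0.069).

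**Figure D5:**
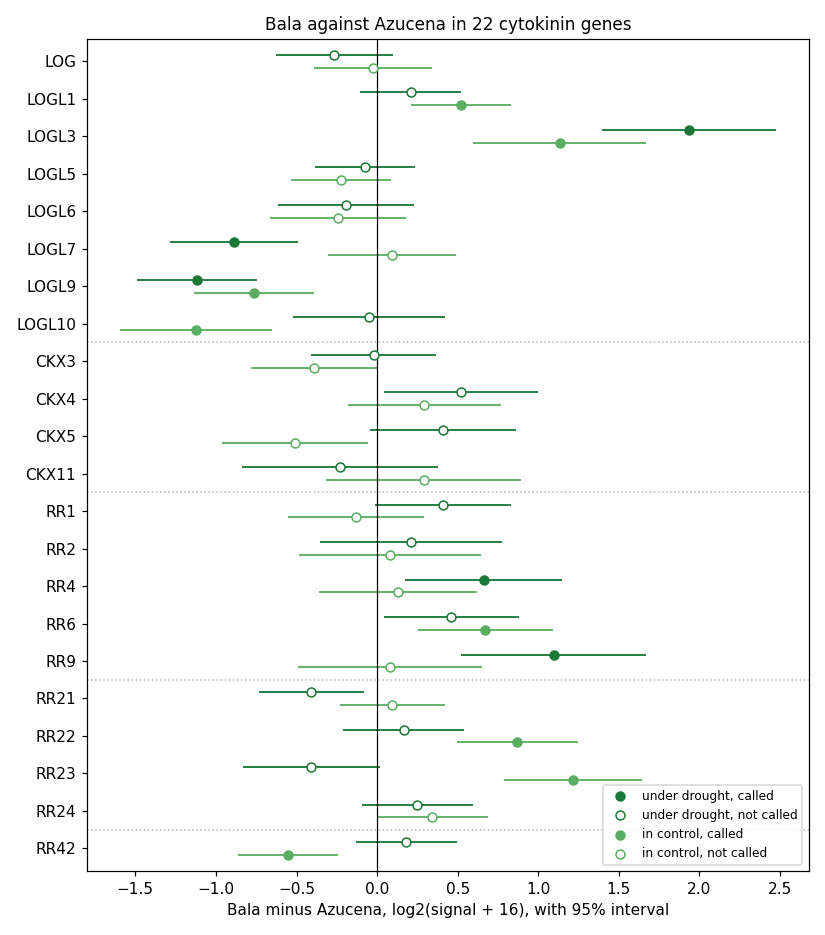
Log2 difference, Bala minus Azucena, on the log2(signal + 16) scale for the 22 genes tested, under drought and in control, with 95% intervals from limma; filled points were called and open points were not. LOGL3 lies to the right and LOGL9 to the left of 0 in both conditions, while LOGL10 and RR23 lie off 0 in control alone among their called values.

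Across the drought response as a mean over both cultivars, 12 of the 22 genes fell and 3 rose, beside 19.4% and 30.7% of all genes (50.1% in either direction). The falls include LOGL6 and LOGL10, which would not have passed the filter without their control arrays. The genes that rose were CKX5, CKX11 and RR22. By its dimmer probe set CKX11 was not called in this mean (0.47, adjusted p = 0.067). CKX5 was above background in Bala drought alone among the group means. The interaction, which tests whether the responses differ, was called for 4 of 22 genes (LOGL7, LOGL10, RR23 and RR42), beside 14.9% of all genes. A higher response in Bala was called for 2 of these and a lower one for 2, beside 9.82% and 5.13%. For LOGL10 the interaction of 1.07 (adjusted p = 0.036) rests on drought values at background in both cultivars and depends on the added 16. It was not called with an added 1 (0.20), with no filter (0.090), after quantile normalization (0.065) or spike-in centring (0.057), or without Azucena control 2 or 3, Azucena drought 1, Bala control 1 or 3 or Bala drought 2 or 3 (0.061 to 0.094). Without Azucena control 2, Azucena drought 1 or Bala drought 2, 2 interactions were called, and without Azucena control 2 the Azucena count was 11 genes.

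Other genes of the pathway were taken from a list of receptors, phosphotransfer proteins, transporters and further enzymes. The 7 that could be tested were 4 receptor and 3 phosphotransfer genes. No transporter or further enzyme gene was among them. None of these 7 fell in either cultivar, while 2 rose in each, beside 18.2% of all genes called higher in Azucena and 27.4% in Bala, which is near the share of these 7. HK5, a histidine kinase receptor gene, had 480.7, 540.4 and 489.1 in Azucena drought, against 199.8, 256.7 and 183.9 in Azucena control, and 613.3, 524.1 and 533.4 in Bala drought, against 268.3, 411.7 and 312.3 in Bala control. It rose by 1.19 (SE 0.17, adjusted p = 4.6e-05) and 0.74 (SE 0.17, adjusted p = 0.0027), without overlap. The HK5 probe set is of a type that can detect other transcripts.

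HK3, another receptor gene, had 615, 831.9 and 815.2 in Azucena drought, against 414.2, 446.7 and 369.2 in Azucena control, and rose by 0.84 (SE 0.16, adjusted p = 8.8e-04). In Bala it had 619 ± 53 under drought and 477 ± 88 in control, and the value of 0.38 was not called (adjusted p = 0.092), except without Bala control 3 (0.046) or after spike-in centring (0.014). Of the receptor genes HK4 and CRL4, neither was called in either cultivar, with log2 differences between 0.22 and 0.41.

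Among the genes listed as phosphotransfer genes, PHP5 rose at least 2.14-fold in Bala (adjusted p = 0.0015), with 25.2, 30.8 and 43.3 under drought, against 5.9, 12.8 and 8 in control, which is background. Whether the PHP5 protein passes on a phosphate was not examined. In Azucena it had 57.4 ± 8.6 under drought and 61 ± 18 in control. AHP1 and AHP2 were called in neither cultivar as deposited, though AHP2 (0.35 in Azucena, 0.37 in Bala) was in both after spike-in centring (adjusted p = 0.037 and 0.016) and in Bala without Bala control 2 (0.024) or Bala drought 3 (0.031).

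Markers of cell types and of leaf ageing were read beside these genes, and their part in the results was not tested. Over all genes 18.2% were called higher and 17.4% lower in Azucena, and 27.4% and 14.1% in Bala. Of 5 leaf senescence markers (SGR, NYC1, NOL, RCCR1 and NAC2), 5 rose in Azucena, where their summed signal ran from 3477 to 7221 under drought and from 1752 to 2513 in control. In Bala 3 of 5 rose, with sums of 2743 to 3974 under drought and 1568 to 2200.0 in control. NYC1 was not called in Azucena without Azucena drought 2 (adjusted p = 0.078). NOL was not called in Bala (0.46, adjusted p = 0.072), although its arrays parted upward. It was called there after spike-in centring (0.019), by its dimmest probe set (0.047) or without Azucena drought 1 (0.044). Leaf mesophyll markers were bright on all arrays, as in a leaf sample, with sums of 18510 to 19820 in Azucena drought, 23690 to 27780 in Azucena control, 18790 to 21000 in Bala drought and 23630 to 26910 in Bala control. Of 4 tested, 3 fell in Azucena and 2 in Bala, and RBCS1 was at background. The PORB fall in Azucena was lost when Azucena control 1, Azucena control 2 or Azucena drought 3 was left out (0.084 to 0.12). It was also lost with no filter (0.052) or no trend (0.059). The CAB2R fall in Azucena was lost with no trend (0.056) and when read by its dimmest probe set (0.065). Read that way, the RBCS fall in Bala was not called either (0.15).

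Of 5 vascular and secondary wall markers, 5 rose in Bala and none in Azucena, beside 27.4% and 18.2% of all genes. In Bala control 4 of the 5 (CESA4, CESA7, CESA9 and BC1) were at background, so their rises are bounds. The interaction was called for 4 of the 5, but not for CESA9 (0.37, adjusted p = 0.57). The CESA4 interaction was lost by its dimmest probe set (0.27), and those of CESA7 (0.092) and BC1 (0.083) with no filter. Leaving out some single arrays also lost CESA7 (0.053 to 0.072) and BC1 (0.056 to 0.065). Sums of the 5 markers were 385 to 433 in Azucena drought, 250.1 to 433.3 in Azucena control, 456 to 654 in Bala drought and 115 to 171 in Bala control. Without Azucena control 2, CESA4 (adjusted p = 0.024) and CESA9 (0.0065) rose in Azucena as well. The shoot meristem genes OSH1, OSH6, OSH71 and WOX4 were not above background on any array, with sums over 6 markers of 53.9 to 76.4 in Azucena drought, 93.6 to 115 in Azucena control, 84.7 to 113 in Bala drought and 85.6 to 123 in Bala control, of which FON1 fell in Azucena. Neither were the dividing cell markers CYCB1-1, CYCB2-1, CYCB2-2 and CDKB2;1. Sums over 5 were 199 to 212 in Azucena drought, 270 to 355 in Azucena control, 177 to 201 in Bala drought and 202 to 259 in Bala control. Of the 2 tested, PCNA was called lower in Azucena (-0.49, adjusted p = 0.019). In Bala its arrays also parted downward (-0.25, adjusted p = 0.23), with a call after quantile normalization (0.019). The PCNA responses did not differ by a called amount (0.25, adjusted p = 0.51). CDKB2;1 was called lower in Azucena (-0.75, adjusted p = 0.010), but was at background in all groups. The PCNA call in Azucena was lost when Azucena drought 1 or 3, or Azucena control 2 or 3, was left out (0.052 to 0.072). The sums mostly follow their brightest marker, which was PCNA for dividing cells, FON1 for the meristem and SUT1 for the vascular list. PHT1-11, the 1 root marker with a probe set, was below background throughout, as were the anther genes C6 and TDR, whereas MSP1 of that list rose in Bala.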

How the data were processed

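The authors deposited 1 linear signal intensity for each probe set of each array, made with MAS5 per the submitters' processing notes. Its scaling target is not given in the sources used here. Labels' protocols give Trizol extraction and biotin labelling. Here 16 was added to each intensity before taking log2, with no further scaling. After removal of 123 control probe sets, the 33476 that exceeded the array median on 3 or more of 12 arrays were tested. With limma 3.58.1 (R 4.3.3), lmFit estimated 4 group means from all 12 arrays, followed by eBayes with trend, and p-values were Benjamini-Hochberg adjusted over all probe sets. The pipeline was tested on simulated data.

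Each gene was represented by its tested probe set with the highest mean. Names came from the platform and species gene tables. A group counted as at background where none of its arrays exceeded background or its mean did not exceed the mean background. A bound sets the bright group's mean log2 signal against the higher of background and the dim signal. Members and lists were chosen with earlier results of these data known. All 26 genes are accounted for. Values on all arrays were to be given for genes called without overlap in a drought response, called in the interaction, or differing between cultivars by over 1 on the log2 scale, and other listed genes were named up to 4 per list, though some are named beyond that rule, chosen after their values were seen. The marker gene BC1 excludes bHLH081, which shares that name. Planned promoter and protein descriptions were not made, because no sequence was used here. Alternatives were quantile, median and spike-in scaling, other pseudocounts and filters, no trend, another probe set, a replicate block and leaving out each array. Replicate numbers were checked for pairing: deviations from the group means of same-numbered samples correlated at -0.11 to 0.22, with 2 of 18 pairs over 0.1, so the numbers were not taken as pairs. Replicates are labelled biological.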

Additional observations from a re-analysis of the deposited data

Results flagged for a closer look

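The drought responses of 5 cytokinin pathway genes differed between the cultivars by the interaction term, given as the Bala minus the Azucena log2 response. RR23 differed by -1.62, with a rise in Azucena and a fall in Bala. LOGL7 differed by -0.98, and its second probe set, at background in both Bala groups, could not measure this. LOGL10 differed by 1.07, with drought arrays at background in both cultivars. RR42 differed by 0.73, with arrays of opposite order in the cultivars. PHP5 differed by 1.02 (adjusted p = 0.030), with Bala control at background, and was not called with an added 64 (0.073), without a filter (0.083), or without Azucena control 1 or 2, Azucena drought 2 or 3, Bala control 1 or 3 or Bala drought 2 or 3 (0.050 after rounding to 0.079).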

How the results depend on the processing

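Across 22 alternatives, 47 of 63 called differences of single genes kept their call and direction in all in which they could be tested. The count of genes called ranged from 11 to 17 in Azucena, 11 to 15 in Bala and 2 to 4 in the interaction when 1 array was left out, against 17, 14 and 4 with all arrays. No called difference changed sign under another scaling, pseudocount or filter. Reading LOGL7 by its dimmer probe set turned its control difference between cultivars, which was 0.095 and not called, to -0.79, but that probe set is at background in both control groups, so the value has no direction. With the replicate number as a block the counts were 17 genes in Azucena, 14 in Bala, 5 in the interaction, and 7 instead of 5 in the drought cultivar difference, with 4 single differences newly called (CKX4 in Bala, the RR22 interaction, and RR6 and RR21 between cultivars under drought) and 1 lost, CKX11 in Bala. Without a filter 7 differences were lost, where more probe sets were tested. The number of arrays limits the precision, and falls to background are bounds.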

Other observations

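The type-A genes varied together between replicate arrays of a group. All 5 tested (RR1, RR2, RR4, RR6 and RR9) had their lowest signal on Azucena drought 3, on Azucena control 3 and on Bala control 3, and 4 of 5 on Bala drought 1. Of all genes tested, 37.8% were lowest on Azucena drought 3, 49.1% on Azucena control 3, 18.3% on Bala control 3 and 33.9% on Bala drought 1. After quantile normalization the counts were 5, 4, 5 and 5 of 5 on the same arrays, against 30.8%, 31%, 35.1% and 37.1% of all genes. The 4 type-B genes tested also varied together in part. As deposited, 4 were lowest on Azucena drought 1, 4 on Bala control 1, 3 on Azucena control 3 and 3 on Bala drought 1. The shares of all genes were 48.3%, 69%, 49.1% and 33.9%. After quantile normalization 4 were lowest on Azucena drought 1 and 3 on Bala control 1, against 40.6% and 30%. In Azucena control and Bala drought they were then split between arrays. The pattern was noticed in these data and was not tested, and the genes share their arrays.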
